A study of Arabidopsis thaliana with 9 samples.

Results

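The 33 members of the XTH family of Arabidopsis thaliana, XTH1 to XTH33, were followed by their locus identifiers in a table of read counts per gene, where all 33 were found among 29420 identifiers. XTH genes encode xyloglucan endotransglucosylase/hydrolases, enzymes of the plant cell wall. Xyloglucan is the main hemicellulose that coats cellulose in the growing walls of Arabidopsis. Most XTH enzymes cut a xyloglucan chain and join the cut end to another chain, and a few cut it with water, so the family is known for its part in wall loosening and wall building as cells expand. Several members are also known for their response to touch, shade, darkness, brassinosteroid and auxin, and others for their expression in roots, flowers or veins.

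Poly(A) RNA of young seedlings of ecotype Col was sequenced with a strand-specific kit from wild type (WT) and from 2 mutants. In hda9-1 the gene of the histone deacetylase HDA9 is mutated, and in pwr-2 that of POWERDRESS (PWR), a SANT-domain protein that the series title names as an interactor of HDA9. Seedlings were 10 days old and had grown, after a cold treatment of the sown seeds, on MS agar at 23 °C with 16 h of light, and the labels name no other treatment. Each genotype had 3 libraries described as biological replicates. The labels give no separate batch for them, nor the number of seedlings in a library, so p-values measure the spread between these libraries only. Each mutant is 1 allele, and no rescued line was among these samples.

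The libraries held 6450661 to 11150773 counts. A level of 3 counts, taken as the floor of detection, was 0.259 to 0.492 CPM, where CPM is the count of a gene scaled to a fixed library size with TMM factors, and this floor covers counting error only. HDA9 stood at 38.4, 39.3 and 36.5 CPM in WT and at 7.16, 7.40 and 6.56 CPM in hda9-1 (adjusted p = 3.2e-08), and PWR stood at 145, 144 and 133 CPM in WT and at 43.5, 57.2 and 45.5 CPM in pwr-2 (adjusted p = 1.2e-06). Means are given with the SD over n = 3 libraries. Replicate 3 of hda9-1 was the smallest library and had the lowest correlations with its own group, at 0.974 and 0.979, against 0.985 to 0.991 in the other pairs of replicates. Leaf markers were abundant in every library, from 203 CPM for LHCB2.1 upward. The markers of root hairs were at the floor of detection or little above it, with at most 1.16 CPM for PRP3, 1.04 for COBL9, 0.778 for EXPA7, 0.519 for LRX1 and 0.284 for RHD6, and the root tip genes PLT1 and PLT2 reached at most 0.632 and 0.259 CPM. The endodermis gene CASP1 and the epidermis gene WER reached at most 2.87 and 1.99 CPM. Root markers were thus low in every library apart from SHR and SCR, which are active in shoots as well. These libraries can therefore say little about roots.

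Most XTH members that could be measured were called higher in both mutants. Of the 33 members, 24 passed the filter on low counts, and 17 of these rose and 2 fell in hda9-1, while 5 were not called. In pwr-2, 15 rose, 2 fell and 7 were not called. Under every alternative way of processing that was tried, 17 of the 19 calls in hda9-1 and 12 of the 17 in pwr-2 held. A gene is called at an adjusted p under 0.05 in the quasi-likelihood test of edgeR, fitted to all tested genes and adjusted over them by the Benjamini-Hochberg method. By that rule 34.2% of all 20171 tested genes were called in hda9-1 against WT, 17.6% higher and 16.6% lower, and 31.4% in pwr-2 against WT, 16% higher and 15.3% lower. The median log2 fold change of the 24 members was 0.71 in hda9-1 and 0.44 in pwr-2, beside 0.002 and -0.006 over all tested genes. At a log2 fold change of at least 1, 8 members rose in hda9-1 and 6 in pwr-2, beside 1.42% and 1.32% of all tested genes, and no member fell that far, beside 2.34% and 2.27%. The members counted as higher include XTH25 and XTH33 in hda9-1 and XTH25 in pwr-2. These 2 members passed the filter only with the mutant libraries, where they are high, so their part in these counts is no independent support. The libraries of mutant and WT did not overlap for 20 of the 24 members in hda9-1, beside 46.4% of all tested genes, and for 19 in pwr-2, beside 50.4%. The 15 members that rose in pwr-2 all rose in hda9-1 too, beside 2509 of the 3232 tested genes that rose in pwr-2. The 2 comparisons share the WT libraries, so these are not separate observations of the WT level. In RNA of many cell types together, a change in the share of cells that express a gene and a change in its RNA per cell cannot be told apart.

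**Figure D1:**
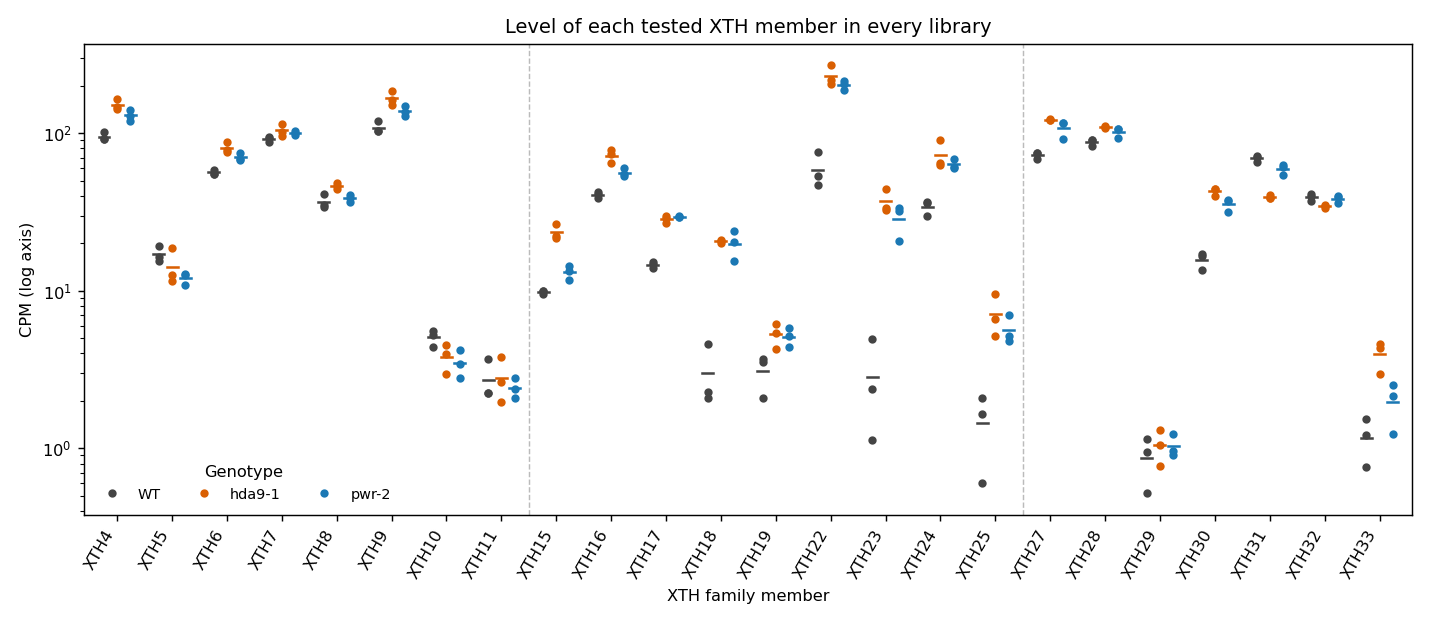
Level of the 24 tested XTH members in every library, in CPM on a log axis. Each point is 1 library of WT (grey), hda9-1 (orange) or pwr-2 (blue), short bars are group means of 3 libraries, and dashed lines part XTH1 to XTH11, XTH12 to XTH26 and XTH27 to XTH33. The mutant points of XTH18, XTH22, XTH23 and XTH25 lie wholly above those of WT, and those of XTH31 lie below.

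The largest rise was that of XTH23 (AT4G25810, also called XTR6; chromosome 4, 13128394 to 13129927, plus strand, TAIR10.1). Its WT counts were 25, 13 and 42, its hda9-1 counts 310, 305 and 270, and its pwr-2 counts 167, 298 and 294. Every mutant library was far above every WT library, and the WT libraries themselves ranged from 1.12 to 4.96 CPM. Its log2 fold change was 3.78 in hda9-1 (SE 0.32, adjusted p = 8.5e-06), a 13.7-fold rise, and 3.44 in pwr-2 (SE 0.32, adjusted p = 2.8e-05), a 10.8-fold rise. Without WT replicate 3, the highest of its group, the log2 fold changes were 4.39 and 4.06, and without WT replicate 2, the lowest, they were 3.35 and 3.02.

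XTH18 (AT4G30280; chromosome 4, 14825757 to 14827211, minus strand) belongs to a group of close copies, with XTH17, XTH19 and XTH20, that is known from roots. WT counts were 24, 24 and 39, hda9-1 counts 198, 182 and 127, and pwr-2 counts 125, 190 and 210. In CPM these were 2.08 to 4.61 in WT, 20.1 to 20.9 in hda9-1 and 15.4 to 23.9 in pwr-2, with WT replicate 3 the highest of its group, as it was for XTH23. The log2 fold changes were 2.83 (SE 0.24, adjusted p = 8.5e-06) in hda9-1 and 2.79 (SE 0.24, adjusted p = 1.4e-05) in pwr-2.

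XTH22 (AT5G57560; chromosome 5, 23307006 to 23308680, minus strand) is TCH4, the XTH gene long known for its rapid induction by touch. It reached 46.8, 53.6 and 75.9 CPM in WT, 206, 218 and 269 CPM in hda9-1, and 189, 205 and 215 CPM in pwr-2. The mutant groups lay wholly above WT and overlapped each other. On the log2 scale it rose by 1.98 (SE 0.15, adjusted p = 4.1e-06) in hda9-1 and 1.80 (SE 0.15, adjusted p = 1.2e-05) in pwr-2. XTH22 alone made 31.3% of the gain in the summed level of the family in hda9-1 and 36.2% in pwr-2.

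XTH25 (AT5G57550; chromosome 5, 23304782 to 23306440, minus strand) lies next to XTH22 and is expressed at a much lower level. WT counts were 22, 7 and 14, hda9-1 counts 63, 47 and 58, and pwr-2 counts 42, 65 and 42. Every mutant library was above every WT library. The log2 fold changes were 2.29 (SE 0.36, adjusted p = 0.00067) in hda9-1 and 1.99 (SE 0.37, adjusted p = 0.00226) in pwr-2. XTH25 and XTH33 reached the filter's cut-off of 1.09 CPM in 2 of the 3 WT libraries and in all 3 libraries of both mutants, so their place among the tested members depended on the mutant libraries.

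XTH30 (AT1G32170, also called XTR4; chromosome 1, 11575320 to 11578030, plus strand) gave WT counts of 142, 193 and 144, hda9-1 counts of 381, 402 and 270, and pwr-2 counts of 257, 347 and 329. It rose by 1.45 (SE 0.099, adjusted p = 2e-06) in hda9-1 and 1.18 (SE 0.10, adjusted p = 1.4e-05) in pwr-2, with no overlap between mutant and WT libraries. XTH17 (AT1G65310; chromosome 1, 24257054 to 24258506, plus strand), known from roots and from shade responses, gave WT counts of 155, 161 and 129, hda9-1 counts of 256, 268 and 176, and pwr-2 counts of 239, 277 and 258, and in CPM every mutant library was above every WT library. Its log2 fold changes were 0.96 (SE 0.074, adjusted p = 4.9e-06) and 1.02 (SE 0.074, adjusted p = 4e-06). XTH24 (AT4G30270; chromosome 4, 14819192 to 14820595, minus strand), known as MERI5 and SEN4 from meristem and senescence libraries, had 35.8, 29.7 and 36.4 CPM in WT, 64.2, 62.6 and 90.6 CPM in hda9-1, and 60.9, 68.9 and 60.2 CPM in pwr-2. It rose by 1.08 (SE 0.13, adjusted p = 0.00011) in hda9-1 and 0.91 (SE 0.13, adjusted p = 0.00054) in pwr-2, and the highest value came from hda9-1 replicate 3.

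**Figure D2:**
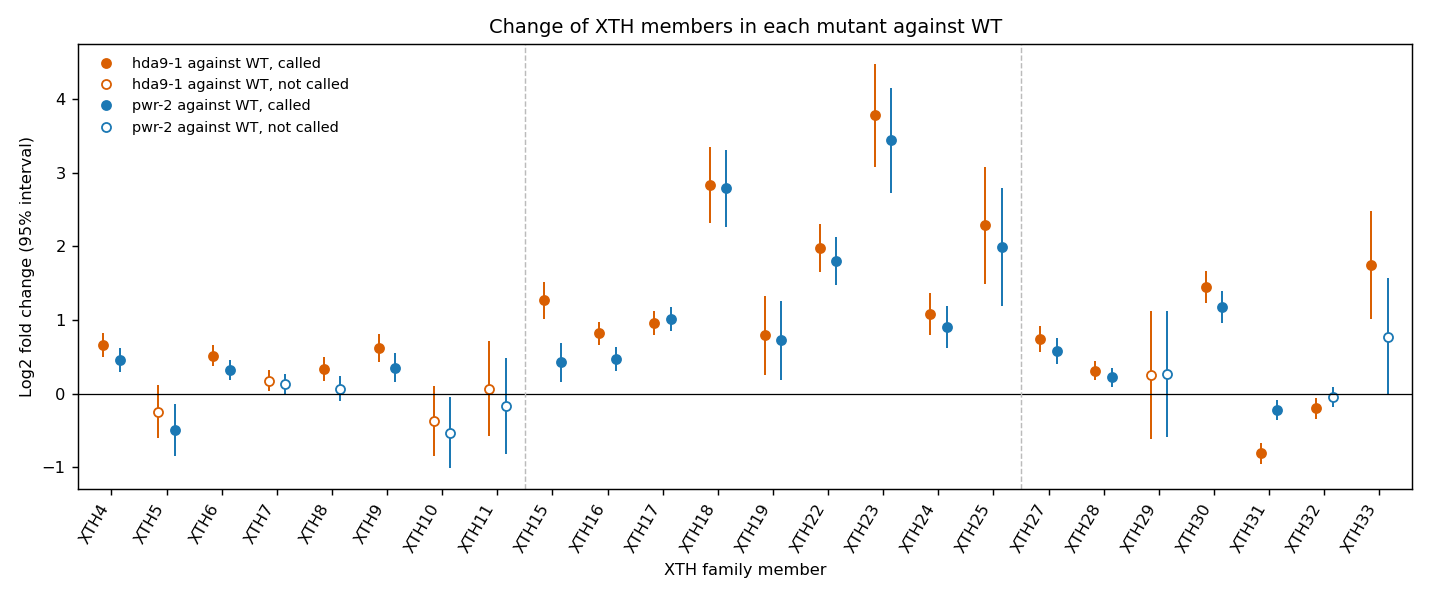
Log2 fold change of each of the 24 tested XTH members in hda9-1 (orange) and pwr-2 (blue) against WT, with the 95% interval derived from the test. Filled points were called at an adjusted p under 0.05 and open points were not, and dashed lines part the number ranges. All 9 tested members from XTH15 to XTH25 have filled points above 0 in both mutants, while XTH31 has filled points below 0. XTH25 passed the filter on low counts only with the mutant libraries.

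XTH31 (AT3G44990, also called XTR8; chromosome 3, 16446935 to 16448844, minus strand) moved the other way. It and XTH32 form the small branch of the family whose enzymes are known as xyloglucan hydrolases, and XTH31 is known from the response of roots to aluminium. It had 70.5, 71.3 and 65.3 CPM in WT, 40.2, 38.9 and 38.8 CPM in hda9-1, and 63.1, 60.7 and 54.4 CPM in pwr-2. The 3 groups did not overlap, with WT highest, pwr-2 between and hda9-1 lowest. The log2 fold change was -0.81 (SE 0.065, adjusted p = 5.9e-06) in hda9-1. In pwr-2 it was -0.22 (SE 0.061, adjusted p = 0.0176), a call that ended with DESeq2 (0.0614) and without WT replicate 1 (0.0614), WT replicate 2 (0.0709) or pwr-2 replicate 3 (0.0646). XTH32 (AT2G36870) had 39.5 ± 2.13 CPM in WT, 34.4 ± 0.859 in hda9-1 and 38.3 ± 2.06 in pwr-2. It fell slightly in hda9-1 (-0.20, SE 0.063, adjusted p = 0.0291) and had -0.05 in pwr-2 (adjusted p = 0.585). The call in hda9-1 ended with DESeq2 (0.162) and without WT replicate 1 (0.0824), WT replicate 2 (0.112), hda9-1 replicate 1 (0.0514), hda9-1 replicate 2 (0.0514) or hda9-1 replicate 3 (0.0700).

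The 300 bases before the annotated start are shown for XTH23, XTH18 and XTH25, the members with the largest rises in both mutants. Those of XTH31, the member that fell in both, are shown beside them. They were taken from RefSeq's TAIR10.1 assembly and are written 5′ to 3′ on the strand of the gene, from chr4:13128094-13128393 for XTH23, chr4:14827212-14827511 for XTH18, chr5:23306441-23306740 for XTH25 and chr3:16448845-16449144 for XTH31. Capitals mark matches, on either strand, to 8 short motifs whose letters are given after the sequences, none of which contains another.
XTH23: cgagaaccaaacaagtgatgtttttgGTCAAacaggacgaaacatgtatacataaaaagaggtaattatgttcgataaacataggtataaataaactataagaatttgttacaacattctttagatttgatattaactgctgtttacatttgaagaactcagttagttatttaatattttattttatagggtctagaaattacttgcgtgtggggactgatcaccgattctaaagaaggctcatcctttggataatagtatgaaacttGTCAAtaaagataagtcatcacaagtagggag
XTH18: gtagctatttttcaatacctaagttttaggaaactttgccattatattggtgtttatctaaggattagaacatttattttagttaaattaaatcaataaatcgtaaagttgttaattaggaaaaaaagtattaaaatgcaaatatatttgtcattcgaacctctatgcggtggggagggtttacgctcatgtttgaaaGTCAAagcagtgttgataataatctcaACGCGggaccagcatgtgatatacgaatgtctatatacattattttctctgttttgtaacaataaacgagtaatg
XTH25: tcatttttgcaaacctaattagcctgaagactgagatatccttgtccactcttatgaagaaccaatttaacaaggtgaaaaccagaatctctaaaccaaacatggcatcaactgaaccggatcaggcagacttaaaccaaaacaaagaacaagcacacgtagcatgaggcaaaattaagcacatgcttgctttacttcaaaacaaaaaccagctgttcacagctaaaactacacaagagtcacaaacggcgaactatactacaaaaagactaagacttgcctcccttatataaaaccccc
XTH31: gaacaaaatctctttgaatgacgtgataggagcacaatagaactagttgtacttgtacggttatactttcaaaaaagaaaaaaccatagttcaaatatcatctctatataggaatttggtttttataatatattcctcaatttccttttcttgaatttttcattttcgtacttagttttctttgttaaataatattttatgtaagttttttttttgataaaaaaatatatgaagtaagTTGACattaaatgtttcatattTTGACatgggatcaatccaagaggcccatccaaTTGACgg
XTH23 has W-box cores (TTGAC), which are known as sites of WRKY factors, that begin 274 and 32 bases before its start. XTH18 has 1 at 102 bases and a CGCG box core (CGCGT) at 75. XTH25 has none of the 8 motifs, and XTH31 has W-box cores at 62, 40 and 7 bases. The W-box core is common, since it occurs in 50.4% of 27443 windows of this length before protein-coding genes, and in 17 of the 33 members. The CGCG box core occurs in 7.89% of all windows and in 3 members, XTH13, XTH18 and XTH20. The DRE core (CCGAC) occurs in 13.9% of windows and in 3 members. The auxin response element (TGTCTC) occurs in 13% of windows and in 3 members. Absent from every member's window were the G-box (CACGTG), found in 7.09% of all windows, and the GCC box (GCCGCC), found in 2.26%. The same held for the BZR1 element (CGTGCG), found in 1.78% of windows, and for the TCP core (GGGCCC), found in 1.91%. These matches are letters in a window and were not tested as binding sites.

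The numbering of the family broadly follows sequence relationship. In the range XTH12 to XTH26, 9 of 15 members were tested, and all 9 rose in hda9-1 and in pwr-2, with a median log2 fold change of 1.27 and 1.02. The summed level of this range was 156 to 195 CPM in WT, 450 to 568 in hda9-1 and 391 to 446 in pwr-2. XTH25, 1 of the 9 tested, passed the filter only with the mutant libraries, where it is high. Its part in this count and in these medians is therefore no independent support. In the range XTH1 to XTH11, 8 of 11 were tested. Of these, 4 rose and none fell in hda9-1, and 3 rose and 1 fell in pwr-2, with medians of 0.25 and 0.10. In the range XTH27 to XTH33, all 7 were tested, 4 rose and 2 fell in hda9-1, and 3 rose and 1 fell in pwr-2, with medians of 0.31 and 0.27. XTH33, 1 of the 4 that rose in hda9-1, also passed the filter only with the mutant libraries. Over all tested genes 34.2% were called in hda9-1 and 31.4% in pwr-2, with medians of 0.002 and -0.006. The ranges were chosen with earlier results of these data known and were not tested against each other.

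**Figure D3:**
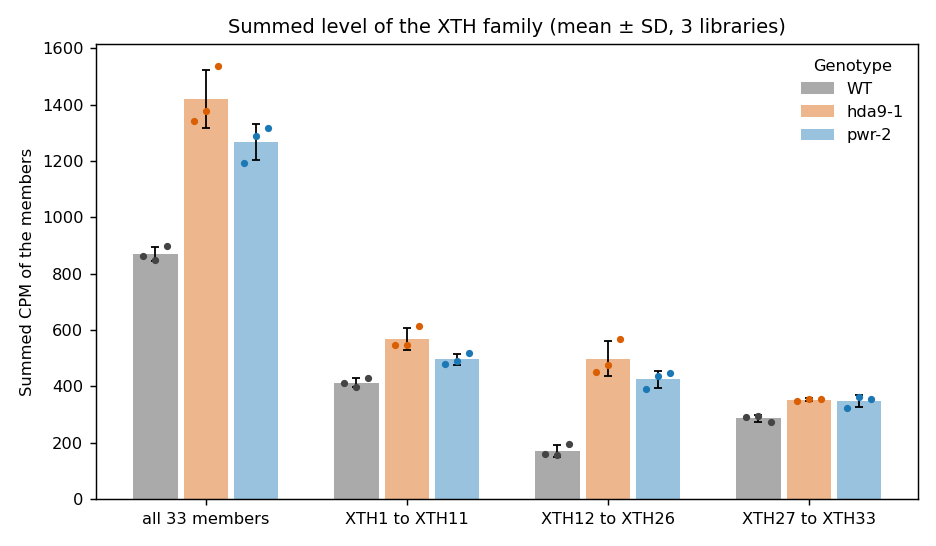
Summed CPM of all 33 XTH members and of 3 ranges of the family by number. Bars are means of 3 libraries with SD as error bars, points are libraries, and colours are WT (grey), hda9-1 (orange) and pwr-2 (blue). The sum of all members was 869 ± 25.8 CPM in WT, 1420 ± 104 in hda9-1 and 1266 ± 64.7 in pwr-2, and that of XTH12 to XTH26 was 169 ± 21.8, 498 ± 62.3 and 425 ± 29.3 CPM.

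XTH15 (AT4G14130, also called XTR7; chromosome 4, 8137020 to 8138392, minus strand) and XTH16 (AT3G23730), known with XTH17 from shade-induced elongation, rose in both mutants. XTH15 had 9.95, 9.51 and 9.92 CPM in WT, 21.6, 26.6 and 22.3 CPM in hda9-1, and 11.7, 14.3 and 13.3 CPM in pwr-2, so that the 3 groups stood apart. Its log2 fold change was 1.27 (SE 0.11, adjusted p = 1.3e-05) in hda9-1 and 0.42 (SE 0.12, adjusted p = 0.0202) in pwr-2. The call in pwr-2 ended with DESeq2 (0.0582) and without WT replicate 1 (0.0529), WT replicate 2 (0.0710), pwr-2 replicate 2 (0.0917) or pwr-2 replicate 3 (0.0537). XTH15 shares 31.6% of its exon bases with AT4G14120 on the other strand, and the strand setting of the counting is not given in the sources used here. AT4G14120 had log2 fold changes of -0.24 (adjusted p = 0.209) and -0.19 (adjusted p = 0.317) and was called in neither mutant. Whether its reads have a part in the counts of XTH15 was not tested. XTH16 had 40.7 ± 1.57 CPM in WT, 72.1 ± 6.75 in hda9-1 and 56.1 ± 3.42 in pwr-2, and rose by 0.82 (SE 0.073, adjusted p = 1.2e-05) and 0.46 (SE 0.075, adjusted p = 0.00098).

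XTH33 (AT1G10550; chromosome 1, 3479066 to 3481041, minus strand), whose protein is held in the plasma membrane, gave WT counts of 8, 14 and 13, hda9-1 counts of 28, 39 and 28, and pwr-2 counts of 10, 20 and 22. It rose in hda9-1 by 1.75 (SE 0.34, adjusted p = 0.00216). In pwr-2 the log2 fold change was 0.77 (SE 0.36, adjusted p = 0.124), and the libraries overlapped those of WT.

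Per kilobase of exon, the highest mean levels in WT were those of XTH7 (71.4 ± 2.48 CPM per kb), XTH9 (70.8 ± 6.03), XTH28 (58.8 ± 2.70), XTH4 (58.8 ± 3.38) and XTH31 (49.6 ± 2.35), and the neighbours in the pairs XTH7 and XTH9, and XTH28 and XTH4, differed by less than their SD. XTH22 ranked 8 of 33 in WT, at 37.0 ± 9.58 CPM per kb, and 1 in both mutants, at 145 ± 21.1 in hda9-1 and 128 ± 8.50 in pwr-2. XTH4 and XTH9, which are known from stems and wood, rose by log2 fold changes of 0.67 (SE 0.075) and 0.62 (SE 0.087) in hda9-1 and of 0.45 (SE 0.075) and 0.36 (SE 0.087) in pwr-2. XTH6 rose by 0.52 and 0.32, the vein-expressed XTH27 by 0.75 and 0.58, and XTH28, needed for normal stamen filaments, by 0.31 and 0.22. The call of XTH28 in pwr-2 ended with loess offsets (0.194), with upper-quartile factors (0.0710), without pwr-2 replicate 2 (0.0786) and without pwr-2 replicate 3 (0.0544). With loess offsets, which scale each library by level, the change of XTH28 was 0.20 in hda9-1 and 0.11 in pwr-2, and that of XTH9 in pwr-2 was 0.22. XTH8 rose by 0.33 (SE 0.076, adjusted p = 0.00596) in hda9-1 and had 0.07 (adjusted p = 0.518) in pwr-2.

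XTH19, a close copy of XTH18, rose by 0.79 (SE 0.25, adjusted p = 0.0273) in hda9-1 and 0.73 (SE 0.25, adjusted p = 0.042) in pwr-2. WT counts were 39, 24 and 30, hda9-1 counts 51, 56 and 26, and pwr-2 counts 47, 41 and 45, and in CPM both mutants lay above WT. The call in hda9-1 ended with DESeq2 (0.0516), in a fit of the 2 groups alone (0.0516), and without WT replicate 2 (0.112), hda9-1 replicate 1 (0.0525) or hda9-1 replicate 2 (0.107). The call in pwr-2 ended with DESeq2 (0.0833), with upper-quartile factors (0.0662), and without WT replicate 2 (0.160), pwr-2 replicate 1 (0.129), pwr-2 replicate 2 (0.0620) or pwr-2 replicate 3 (0.0914). XTH5 fell in pwr-2, with 19.2, 16.4 and 15.4 CPM in WT against 12.8, 12.6 and 10.9 CPM, or -0.49 on the log2 scale (SE 0.16, adjusted p = 0.0391). That call ended with loess offsets (-0.32, 0.116), with DESeq2 (0.0624), and without WT replicate 1 (0.154), WT replicate 2 (0.0822), pwr-2 replicate 1 (0.0714), pwr-2 replicate 2 (0.0857) or pwr-2 replicate 3 (0.131). In hda9-1 XTH5 had -0.24 (adjusted p = 0.269), and -0.50 (adjusted p = 0.0162) without hda9-1 replicate 1.

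XTH7, XTH10, XTH11 and XTH29 were called in neither mutant. XTH7 had log2 fold changes of 0.18 (adjusted p = 0.0542) and 0.13 (adjusted p = 0.137), with all 3 libraries of each mutant above all 3 of WT. In hda9-1 it was called without hda9-1 replicate 1 (0.0166), with no filter on low counts (0.0494) and with the replicate number as a block in a fit of the WT and hda9-1 libraries (0.172, adjusted p = 0.0135). In pwr-2 it was called in a fit of the 2 groups alone (0.0402) and without hda9-1 replicate 3 (0.0402). XTH10 had -0.37 (adjusted p = 0.209) and -0.53 (adjusted p = 0.0863). XTH11 and XTH29, with 12 to 39 and 6 to 12 counts per library, had wide 95% intervals, from -0.57 to 0.71 for XTH11 and from -0.62 to 1.13 for XTH29 in hda9-1.

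The other 9 members were too low to test. XTH1 and XTH3 had no count in any library. XTH2 and XTH26 had 1 count in all, XTH12 and XTH13 had 3 each, XTH21 had 11, XTH14 had 20 and XTH20 had 25. XTH3 encodes an enzyme that can also join xyloglucan to cellulose. The 9 members listed as known from roots were XTH12, XTH13, XTH14, XTH17, XTH18, XTH19, XTH20, XTH21 and XTH26, and 6 of them are among those too low to test. XTH14 gave WT counts of 4, 11 and 0, hda9-1 counts of 3, 0 and 0, and pwr-2 counts of 0, 1 and 1, so no difference was detectable at this depth.

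The 3 root-listed members that could be tested, XTH17, XTH18 and XTH19, rose in both mutants. Of 11 root markers, 4 were tested, WER, CASP1, SHR and SCR. None was called in either mutant, beside 34.2% of all tested genes in hda9-1 and 31.4% in pwr-2. WER and CASP1 were low, and SHR and SCR are active in shoots as well, so this cannot show whether the share of root tissue changed. The summed level of the 11 was 115 to 125 CPM in WT, 119 to 120 in hda9-1 and 123 to 134 in pwr-2, nearly all of it from SHR and SCR. Of 6 leaf markers, none was called in hda9-1 and 1, LHCB2.1, rose in pwr-2 by 0.19. Of 5 flower markers, 1, SEP3, rose by 0.45 in hda9-1 and 0.72 in pwr-2, and the summed level of the 5 was 24.3 to 27.7 CPM in WT, 31.4 to 41.5 in hda9-1 and 36.4 to 45.3 in pwr-2. Whether this has a part in the changes of XTH genes was not tested.

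XTH genes often lie close together, and the changes of neighbours were not tested against each other. XTH23 and XTH14 are 363 bases apart on chromosome 4 with a coding identity of 64.8%, and XTH23 held 167 to 310 counts in the mutant libraries where XTH14 held 0 to 3. XTH24, XTH18 and XTH19 follow each other on chromosome 4 with no other protein-coding gene between, at distances of 5161 and 1500 bases, and rose by 1.08, 2.83 and 0.79 in hda9-1. XTH18 and XTH19 are 86.8% identical over their coding bases, and 1.70% and 1.77% of the stretches of 50 bases in their exons have an exact copy elsewhere in the genome. Copies with mismatches were not counted, and whether reads of one gene were counted for the other was not tested. On chromosome 5, XTH12, XTH13, XTH25 and XTH22 lie in this order within a single cluster, with 1 other protein-coding gene between XTH12 and XTH13. XTH25 and XTH22, 565 bases apart, rose in both mutants, while XTH12 and XTH13, which are 89.4% identical to each other, held 0 or 1 count in each library.

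**Figure D4:**
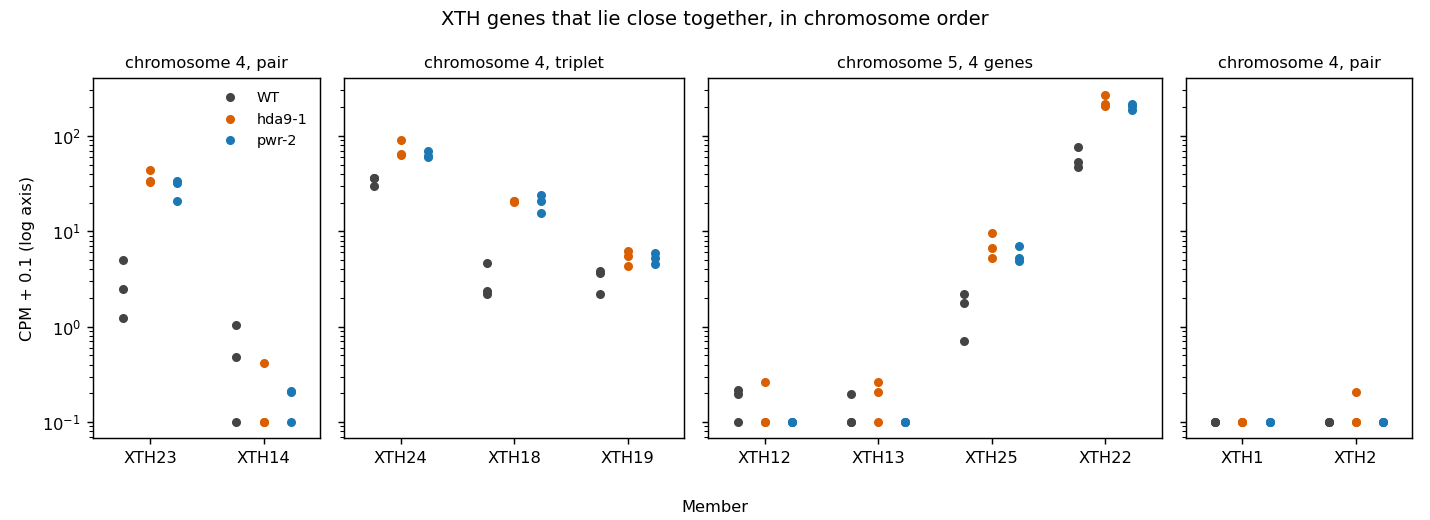
CPM of XTH genes in 4 clusters, each panel in chromosome order, in WT (grey), hda9-1 (orange) and pwr-2 (blue), with 1 point per library. The axis is logarithmic and 0.1 was added to each value so that zeros can be drawn. XTH23, XTH24, XTH18, XTH25 and XTH22 stand higher in the mutants, and XTH14, XTH12, XTH13, XTH1 and XTH2 lie near 0 in every genotype.

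Close copies were also found apart from each other on the chromosomes. XTH22 and XTH23 are each other's nearest relatives, with 79.9% coding identity, and both were among the strongest rises. XTH15 and XTH16, with 80.5%, both rose in both mutants. XTH27 and XTH28, with 77.7%, both rose modestly. Of XTH29 and XTH30, with 63.2%, XTH30 rose in both mutants and XTH29, with 6 to 12 counts per library, was called in neither, and the changes of the pair were not tested against each other.

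The mutants were compared directly as well. XTH31 was higher in pwr-2 than in hda9-1 by 0.59 on the log2 scale (SE 0.067, adjusted p = 0.00369), and XTH15 was lower by 0.84 (log2 fold change -0.84, SE 0.11, adjusted p = 0.0151). Of the 24 tested members these were called, beside 0.421% of all tested genes, 0.312% higher and 0.109% lower. The libraries of the mutants did not overlap for 12 members, beside 17.9% of all tested genes. XTH31 was called under each alternative tried. The call of XTH15 ended without hda9-1 replicate 2 (0.0827) or pwr-2 replicate 1 (0.101). XTH16 came near the threshold, with -0.35 (SE 0.072, adjusted p = 0.056), and over the alternatives its adjusted p ran from 0.0249 to 0.264. XTH33 stood at -0.98 (SE 0.32, adjusted p = 0.201), with a 95% interval of -1.66 to -0.29. For the strongest rises the intervals of the difference were -0.84 to 0.15 for XTH23, -0.45 to 0.36 for XTH18, -0.48 to 0.12 for XTH22 and -0.97 to 0.37 for XTH25, which show how large a difference between the mutants these libraries allow. For XTH17 the interval was narrow, from -0.10 to 0.21. Of the 24 members 4 had a higher estimate in pwr-2 and 20 a lower one, beside 9335 of all 20171 tested genes with a higher one. The median of the members was -0.19, beside -0.01 over all tested genes. The estimates of the members come from the same libraries and are not separate observations.

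Several genes that make xyloglucan rose in both mutants, with smaller changes than the strongest XTH members. Of 16 genes for its synthesis, 15 were tested, 7 rose and 2 fell in hda9-1, and 8 rose and 1 fell in pwr-2, with medians of 0.16 and 0.18. In each mutant 60% of those tested were called, beside 34.2% of all tested genes in hda9-1 and 31.4% in pwr-2. XXT1, a xylosyltransferase that adds the first side-chain sugar, rose by 1.09 (SE 0.076, adjusted p = 2.5e-06) in hda9-1 and 1.00 (SE 0.076, adjusted p = 6.5e-06) in pwr-2. CSLC4, the main synthase of the glucan backbone, rose by 0.90 (SE 0.069, adjusted p = 4.5e-06) and 0.85 (SE 0.068, adjusted p = 9e-06). XXT5, another xylosyltransferase, rose by 0.56 and 0.47, CSLC6 by 0.32 and 0.34, the galactosyltransferase gene XLT2 by 0.29 and 0.42, and XXT2 by 0.29 and 0.28. The remaining calls, named after their values were seen, were a fall of XXT3 in both mutants, by 0.44 and 0.45, a fall of CSLC5 in hda9-1 by 0.19, a rise of MUR3 in both by 0.18 and 0.24, and a rise of FUT1 in pwr-2 by 0.18. Of 5 genes for enzymes that trim or break down xyloglucan, 2 rose in hda9-1 and 1 in pwr-2. These are 40% and 20% of the list, beside 34.2% and 31.4% of all tested genes, so this list did not stand out. AXY8, a fucosidase, rose by 0.46 and 0.37, and the galactosidase gene BGAL10 rose by 0.21 in hda9-1. XYL1, BGLC1 and BGLC3 were called in neither mutant.

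**Figure D5:**
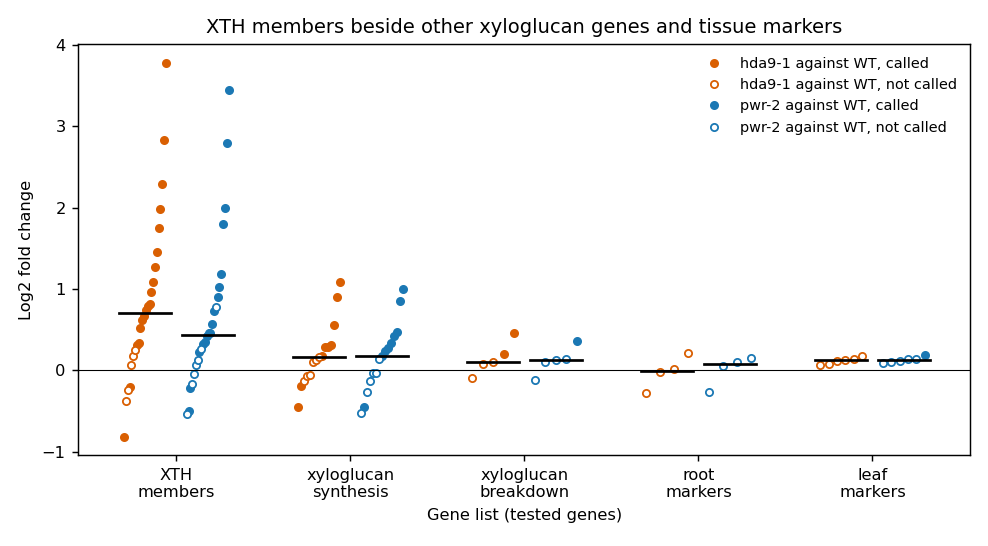
Log2 fold changes in hda9-1 (orange) and pwr-2 (blue) against WT for the tested XTH members, for genes of xyloglucan synthesis and breakdown, and for root and leaf markers. Each point is 1 gene, filled where called at an adjusted p under 0.05, and black bars are list medians. The XTH members reach log2 fold changes of 3.78 and 3.44, against at most 1.09 among the synthesis genes, and the root and leaf markers lie near 0.

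As a whole the family took 0.0879% to 0.0920% of all counts in the WT libraries, 0.135% to 0.145% in hda9-1 and 0.117% to 0.129% in pwr-2. The groups did not overlap. Beside XTH22, the members that added most were XTH9 (10.5% of the gain in hda9-1 and 7.49% in pwr-2), XTH4 (10.1% and 8.77%) and XTH27 (8.97% and 8.95%), all abundant genes with modest fold changes. XTH23, with the largest fold change, made 6.18% and 6.50% of the gain. The 5 most abundant members held 52.5% to 55.7% of the family's counts in every library.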

How the data were processed

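Reads of 9 RNA libraries were mapped with HISAT2 to TAIR10, per the submitters' processing notes. The authors' table gives raw read counts per gene, as deposited, and the counting tool, its strand setting and its treatment of reads with several matches are not given in the sources used here. The deposited counts were tested with edgeR 4.0.16 in R 4.3.3 (limma 3.58.1), with TMM factors and edgeR's filter on low counts (about 10 counts in at least 3 libraries), which left 20171 of 29420 identifiers. One quasi-likelihood fit with genotype as its only term held all 9 libraries. Deviations from the group means of same-numbered WT and hda9-1 libraries had correlations of 0.351, 0.444 and 0.444, each over the minimum of 0.1 set for pairing, so these numbers were taken as pairs. This pairing was seen in the data, and the labels name no shared batch. The other 6 same-numbered pairs had -0.258 to -0.0173. With replicates 2, 3 and 1 of pwr-2, replicates 1, 2 and 3 of WT had 0.160, 0.169 and 0.223, and those of hda9-1 had 0.191, 0.237 and 0.234. These values between different numbers were also over 0.1, but no block was fitted to them. Replicate 3 was the smallest library of WT and of hda9-1, and replicate 1 that of pwr-2. Whether library size has a part in these correlations was not tested. The block over all 9 libraries used the numbers as given. Since same-numbered WT and hda9-1 libraries paired, a fit of these libraries with the number as a block was added, chosen after seeing the data. The p-values were adjusted over all tested genes by the Benjamini-Hochberg method, and 0.05 was the threshold. Levels are CPM. Each SE was derived from the log2 fold change and the statistic of its quasi-likelihood test, and each 95% interval from that SE. They are therefore no evidence separate from the p-value. Members with a log2 fold change of at least 1 are given by library, smaller called changes by fold change, and untested members by total counts. The members and lists were chosen with earlier results of these data known.

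On simulated counts the fit of hda9-1 against WT recovered 74.6%, 86.6% and 100% of genes changed by 0.5, 1 and 2 on the log2 scale, with 20031 genes fitted. The fit of pwr-2 against WT recovered 71.6%, 91.0% and 100% (20029 genes), and that of pwr-2 against hda9-1 68.7%, 92.5% and 95.5% (20021 genes). In these 3 comparisons 5.43%, 3.85% and 7.57% of the calls were genes that had not been changed. Each simulation changed only 67, 67 and 66 genes by 0.5, 1 and 2. In the real counts 6897 genes were called in hda9-1 against WT, 6326 in pwr-2 against WT and 85 between the mutants. Same-numbered WT and hda9-1 libraries were also paired there. Whether recovery and false calls are alike in the real libraries was not tested. The alternatives were upper-quartile, RLE and loess scaling, DESeq2 1.42.0, no filter, a fit of the 2 groups compared, the replicate number as a block, and each library left out. Positions, promoters and coding identity came from RefSeq's TAIR10.1 assembly, and genes were matched by locus identifier.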

Additional observations from a re-analysis of the deposited data

How the results depend on the processing

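Of the members called, 17 of 19 in hda9-1, 12 of 17 in pwr-2 and 1 of 2 between the mutants were called under every alternative. Leaving out 1 library at a time gave 16 to 17 members called higher and 1 to 2 lower in hda9-1, 12 to 16 higher and 0 to 2 lower in pwr-2, and 1 higher and 0 to 2 lower in pwr-2 against hda9-1. The count called lower was 1 with DESeq2 in hda9-1, and 1 with loess offsets and 0 with DESeq2 in pwr-2. Between the mutants it was 2 with upper-quartile factors, loess offsets, DESeq2, no filter and the replicate block, where XTH16 joined XTH15. The cause of these changes was not tested. With the replicate number as a block over all 9 libraries, 17 members were called higher and 2 lower in hda9-1, 15 and 2 in pwr-2, and 1 and 2 between the mutants. With the block in a fit of the paired WT and hda9-1 libraries alone, an alternative added after seeing the data, 18 were called higher, with XTH7 (0.172) joining, and 2 lower. The blocks changed no member call beyond those of XTH16 and XTH7. A block that matches pwr-2 libraries to different numbers of WT and hda9-1 was not fitted.

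Changes of sign occurred in values that were not called, and their cause was not tested. With upper-quartile factors XTH11 had -0.007 in hda9-1 and XTH8 had -0.005 in pwr-2, and with loess offsets XTH11 had 0.149 in pwr-2 and XTH29 had -0.018 in pwr-2 against hda9-1. Over fits that left out 1 library each, XTH11 ran from -0.222 to 0.346 in hda9-1, from -0.304 to 0.115 in pwr-2 and from -0.406 to 0.051 between the mutants. XTH29 ran from -0.043 to 0.517, from -0.023 to 0.535 and from -0.168 to 0.168. In pwr-2 against hda9-1, XTH5 ran from -0.368 to 0.002, XTH7 from -0.096 to 0.024, XTH18 from -0.19 to 0.106 and XTH19 from -0.183 to 0.063. The number of all genes called ran from 4932 to 9472 in hda9-1, from 3917 to 7608 in pwr-2 and from 9 to 252 between the mutants, beside 6897, 6326 and 85. At this depth the 9 untested members gave no comparison, and XTH29 held at most 12 counts in a library.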
